A study of Mus musculus with 6 samples.

Results

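Keratins are the proteins of the intermediate filaments that epithelial cells build. They were followed here in teratomas injected with a mimic of miR-124a-3p and in teratomas injected with a microRNA negative control. Members were chosen by name, with earlier results of these data known. Taken was every non-control spot whose gene name in the scanner files is Krt, a number and at most 1 letter. The rule leaves out the keratin-associated proteins. This gave 52 genes on 68 probes, of 37008 genes on 56605 probes. By the role each is known for, 5 are keratins of simple epithelia, 3 of the basal layer and 9 of the suprabasal layers of stratified epithelia. A further 6 are inducible or belong to skin appendages outside the hair shaft, 23 are keratins of the hair follicle and hair shaft, and 6 have other sites. The family is therefore wider than simple and squamous epithelium.

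The comparison asked what the mimic did to gene expression, in 3 teratomas given miR-124a-3p mimic and 3 given the negative control. All 6 grew from mouse embryonic stem cells placed under the skin of BALB/c nude mice, an immunodeficient strain that lacks T cells and keeps other leukocytes. Mice were assigned at random, and no genotype, sex or age separates the groups in the labels. Both microRNAs were injected into the tumour with the carrier Atelogen, at 15 µg per 100 µL once every 3 days until day 28. Injection began when a tumour measured at least 100 mm3, about 10 days after the cells were given. Each tumour was cut into 2 pieces and 1 of them gave the RNA, and transcripts of the host and of the teratoma cannot be told apart on these probes.

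Keratin filaments are built from pairs of a type I and a type II protein, and each kind of epithelium uses its own pairs. Krt8 pairs with Krt18 in simple epithelia, Krt5 with Krt14 in basal keratinocytes, and Krt1 with Krt10 in cells that have begun to keratinise. Teratomas hold many tissues side by side, and gland-like simple epithelium and keratinising squamous epithelium are common among them. Neurons are the cells best known for high miR-124. In whole tumours, fewer epithelial cells and less keratin RNA per cell cannot be told apart.

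The start regions of 9 keratin genes are shown. Krt71, Krt25, Krt28, Krt76 and Krt10 had the lowest values relative to control among tested members with a promoter sequence, and Krt8, Krt18, Krt5 and Krt14 form the main pairs of simple and basal epithelium. RefSeq promoters (build GRCm38.p6) were found for 35 of the 52 member genes, 36 promoters in all, each reaching 250 bases before and 50 after the start. The letters TATAAA, the core of the TATA box, were searched on the gene's own strand, starting 45 to 16 bases before the start. They were there in 13 of 36 keratin promoters (36.1%) and in 730 of all 32851 promoters of the table (2.22%). Among hair keratins the count was 9 of 16. On either strand anywhere in the 300 bases, 19 of 36 keratin promoters (52.8%) and 13.6% of all promoters held the letters. Below are the 100 bases before the start, 5′ to 3′ on the gene's strand, with TATAAA in capitals where it was found.
Krt71 (chr15:101743098-101743197, minus strand): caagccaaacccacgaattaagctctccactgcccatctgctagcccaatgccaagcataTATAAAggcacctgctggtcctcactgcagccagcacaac
Krt25 (chr11:99322952-99323051, minus strand): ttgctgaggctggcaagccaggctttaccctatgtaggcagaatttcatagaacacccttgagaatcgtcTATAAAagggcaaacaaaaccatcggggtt
Krt28 (chr11:99374904-99375003, minus strand): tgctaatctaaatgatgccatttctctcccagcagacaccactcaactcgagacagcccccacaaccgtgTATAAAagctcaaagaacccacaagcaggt
Krt76 (chr15:101892921-101893020, minus strand): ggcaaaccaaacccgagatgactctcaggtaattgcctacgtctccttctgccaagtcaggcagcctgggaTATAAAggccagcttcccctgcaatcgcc
Krt10 (chr11:99389365-99389464, minus strand): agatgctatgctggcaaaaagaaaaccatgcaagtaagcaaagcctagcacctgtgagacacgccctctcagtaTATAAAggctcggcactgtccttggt
Krt8 (chr15:102004343-102004442, minus strand): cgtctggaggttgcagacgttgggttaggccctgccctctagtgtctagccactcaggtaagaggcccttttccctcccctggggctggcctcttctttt
Krt18 (chr15:102028116-102028215, plus strand): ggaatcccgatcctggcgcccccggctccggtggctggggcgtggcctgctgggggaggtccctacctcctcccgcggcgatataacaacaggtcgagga
Krt5 (chr15:101712906-101713005, minus strand): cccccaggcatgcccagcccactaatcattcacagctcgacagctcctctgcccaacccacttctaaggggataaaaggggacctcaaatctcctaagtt
Krt14 (chr11:100206031-100206130, minus strand): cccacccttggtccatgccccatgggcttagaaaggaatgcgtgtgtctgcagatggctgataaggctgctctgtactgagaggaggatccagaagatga
The 8 tested keratins with these letters near the start had a median log2 fold change of -0.92 (-3.06 to -0.27), and the 13 without them one of -0.24 (-0.64 to 0.50). Of the 8, Krt71, Krt25, Krt28, Krt31 and Krt32 are hair keratins, and none of the 13 is. The letters and the hair role thus largely go together in these sets. Of the 8, Krt71, Krt25 and Krt76 were above background throughout the control arrays only. The shown genes with the letters were picked for low values, and the difference between the sets was not tested. The letters were not tested as binding sites.

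The array's probes named Krt81, Krt83 and Krt85 resemble each other closely, so the levels of these genes may mix. Where they overlap, those of Krt81 and Krt83 match at 51 of 55 bases. The accession behind the probe named Krt83 belongs to Krt87 in the current RefSeq names. Values of Krt81 and Krt85 are therefore uncertain as to the gene.

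Levels below are log2 processed spot intensities relative to the array's 75th percentile, and differences are log2 fold changes of miR-124a over control. Of the 52 keratins, 34 could be tested, meaning that in 1 or both groups all 3 arrays read a probe well above background. The value was lower in the miR-124a tumours for 32 of the 34, against 50.3% of all 22946 genes tested. The median difference was -0.43 for the tested keratins and -0.0022 for all genes. Krt76, Krt33a, Krt25 and Krt71 were tested only through the control arrays, a filter that favours lower values with miR-124a. Among the other 30, above background on all 6 arrays, 28 were lower, with a median of -0.39. Only 1 keratin fell past the threshold, Krt76 (limma, adjusted p under 0.05 over all genes), and none rose. Over all genes 3.23% were called, 2.75% lower and 0.488% higher, so a share of 1 in 34 is near the background. At an unadjusted p under 0.05, 6 keratins differed, against 27.3% of all genes. The groups did not overlap for 5 keratins with lower values (20.6% of all genes) and for 1 with higher values (15% of all genes). Most tested keratins thus shared the direction of their means, and all but 1 differed by too little, for the spread between tumours, to pass the test. The shared direction leaned on miR-124a tumour 2: without it, 24 of 34 had a lower mean and 8 changed sign.

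**Figure D1:**
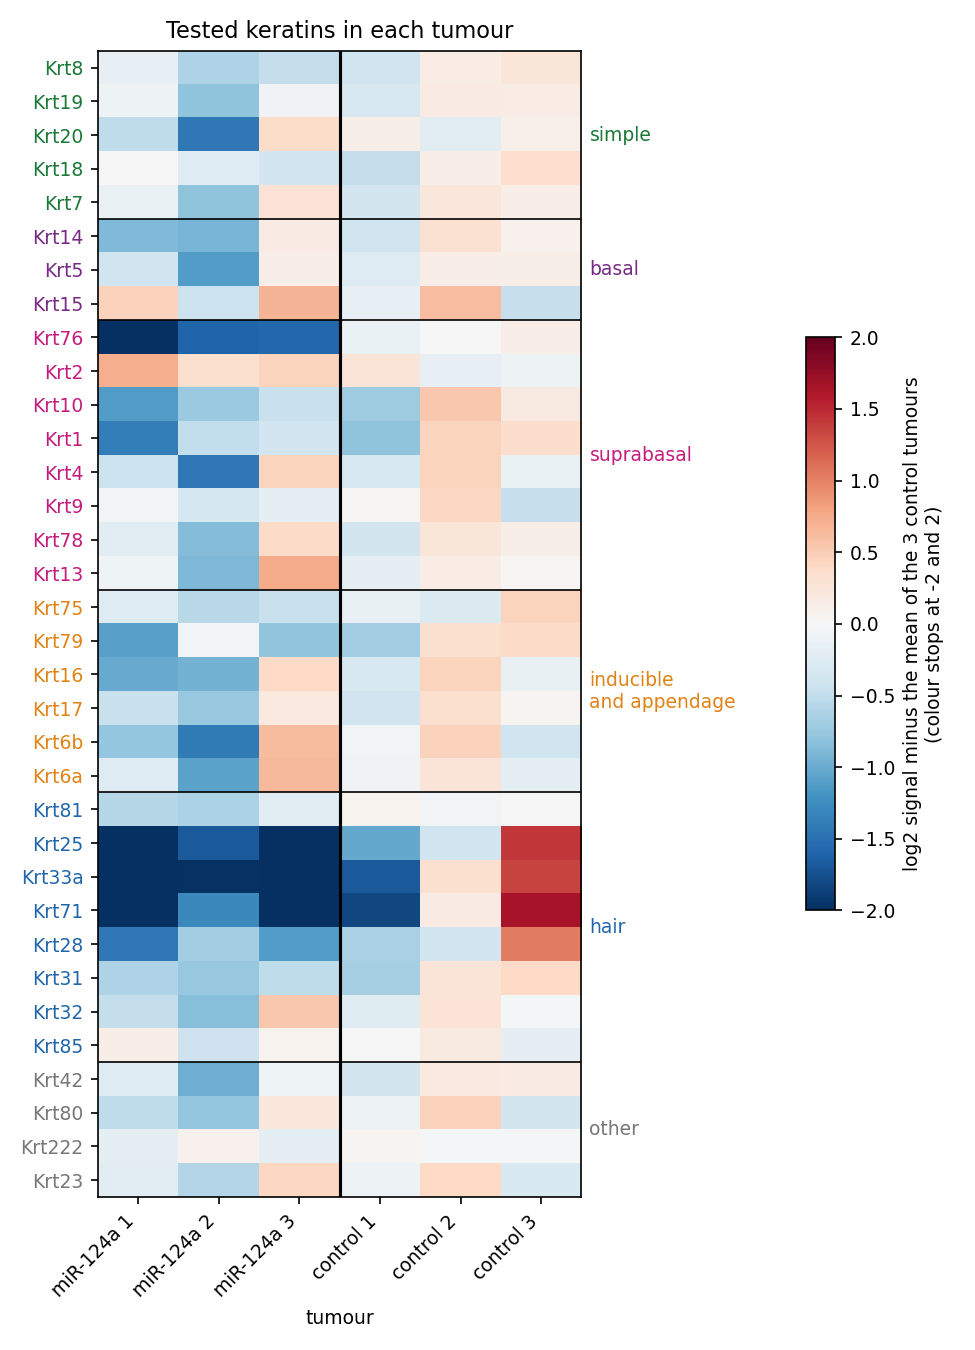
Each row is a tested keratin, grouped by role, and each column a tumour, with the 3 miR-124a tumours left of the 3 control tumours. Colour gives the log2 level minus the mean of the control tumours. Tumour 2 of the miR-124a group is blue for most rows, tumour 3 is red or pale for many, and the darkest blue stands in the hair keratins and Krt76.

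Whole-array quality was alike in the 6 tumours: 35887 to 37307 probes were well above background and none was saturated. Keratin probes above background numbered 37, 38 and 39 in miR-124a tumours and 41, 45 and 45 in control tumours. The control arrays occupied 1 row of the slide and the miR-124a arrays the other, so slide row and treatment cannot be told apart in any difference given here.

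The simple epithelial keratins were present in every tumour, and none of the 5 passed the test. Krt8, the type II keratin of simple epithelia, had levels of 2.65, 2.21 and 2.34 in miR-124a tumours and 2.43, 2.97 and 3.06 in control tumours. Its partner Krt18 stood at 3.48, 3.23 and 3.11 in miR-124a tumours, against 3.01, 3.62 and 3.82 in control tumours. For both genes control tumour 1 lay inside the range of the miR-124a tumours or below it, so the groups overlapped. The difference was -0.42 ± 0.20 for Krt8 (SE, n = 3 per group; limma adjusted p = 0.239) and -0.21 ± 0.23 for Krt18 (adjusted p = 0.572). The 95% intervals ran from -0.91 to 0.076 for Krt8 and from -0.76 to 0.33 for Krt18. The other probe of Krt8 gave -0.33.

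Krt19, a type I keratin of ducts and glands, had 1.17, 0.47 and 1.197 in miR-124a tumours and 0.95, 1.43 and 1.42 in control tumours. Krt7, of ducts and some glandular linings, had -1.45, -2.12 and -1.02 in miR-124a tumours and -1.69, -1.08 and -1.18 in control tumours. Krt20, of intestinal and gastric lining, had -2.11, -3.02 and -1.23 in miR-124a tumours and -1.48, -1.82 and -1.49 in control tumours. In all of Krt7, Krt19 and Krt20 miR-124a tumour 2 was the lowest of the 6, and for Krt7 and Krt20 miR-124a tumour 3 was the highest. Krt20 spanned 3.46-fold among miR-124a tumours and 1.27-fold among control tumours. The differences were -0.32 ± 0.24, -0.21 ± 0.31 and -0.52 ± 0.43 for Krt19, Krt7 and Krt20, with adjusted p (limma) of 0.421, 0.679 and 0.460. Without miR-124a tumour 2 Krt7 changed sign, to 0.080. The median over the 5 simple keratins was -0.32.

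Basal keratins, which mark the dividing layer of squamous epithelium, overlapped between the treatments. Krt5 stood at 2.32, 1.59 and 2.85 in miR-124a tumours and at 2.46, 2.85 and 2.82 in control tumours. Krt14, its type I partner, stood at 1.36, 1.31 and 2.40 in miR-124a tumours and at 1.85, 2.55 and 2.33 in control tumours. The pair ran in the same order within each group: miR-124a tumour 2 was lowest and tumour 3 highest, and control tumour 1 was lowest and tumour 2 highest. The differences were -0.46 ± 0.32 for Krt5 (limma adjusted p = 0.387) and -0.55 ± 0.34 for Krt14 (adjusted p = 0.331). Krt15, a keratin of basal cells and of the hair follicle bulge, had 2.94, 2.04 and 3.16 in miR-124a tumours and 2.31, 3.09 and 2.01 in control tumours. Its mean was higher in the miR-124a tumours, by 0.24 ± 0.38 (adjusted p = 0.712), with overlapping groups.

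Suprabasal keratins replace the basal pair when a keratinocyte leaves the basal layer, and they held the only called member. Krt76, a type II keratin of hard palate and gingiva, had levels of -7.64, -6.42 and -6.38 in miR-124a tumours and -4.95, -4.81 and -4.68 in control tumours. None of the miR-124a arrays was well above background for it and all control arrays were, so the miR-124a level is only bounded. The fitted difference was -2.0 ± 0.34 with an adjusted p of 0.0408 (limma), and set against the lowest signal above background the level was at least 1.46-fold lower. Its probe lies on chromosome 15 at 101715054 to 101715113 (build mm9, minus strand), and it was dim in the control tumours too. The call was lost without any 1 of the 6 tumours (adjusted p of 0.0620 to 0.115). It was also lost with normexp background correction (-0.21, adjusted p = 0.0900), without the filter on dim probes (0.0947) and with array weights (0.0572).

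Krt1 and Krt10, the pair of early keratinising cells, stood in the same order of tumours within each group. Krt1 had -1.14, -0.26 and -0.14 in miR-124a tumours and -0.57, 0.69 and 0.60 in control tumours. Krt10 had 1.24, 1.61 and 1.91 in miR-124a tumours and 1.63, 2.89 and 2.53 in control tumours. For both, miR-124a tumour 1 was the lowest of the 6 and control tumours 2 and 3 the highest, while control tumour 1 lay among the miR-124a tumours. The differences were -0.75 ± 0.42 for Krt1 (limma adjusted p = 0.287) and -0.76 ± 0.34 for Krt10 (adjusted p = 0.210), with 95% intervals of -1.76 to 0.25 and -1.60 to 0.067.

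Krt2, a type II keratin of the late suprabasal epidermis, had a higher mean with miR-124a. Its levels were -4.28, -4.69 and -4.57 in miR-124a tumours and -4.76, -5.17 and -5.11 in control tumours. Every miR-124a tumour was above every control tumour, by 1.42-fold on average, but the difference of 0.50 ± 0.16 did not pass the test (limma adjusted p = 0.118). With normexp background correction it was 0.072 (adjusted p = 0.443).

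Krt4 and Krt13, the pair of non-cornified linings such as oesophagus, turned on miR-124a tumour 2. Krt4 had -0.73, -1.74 and 0.13 in miR-124a tumours and -0.63, 0.14 and -0.43 in control tumours. Krt13 had 0.93, 0.11 and 1.76 in miR-124a tumours and 0.84, 1.17 and 1.05 in control tumours. In both genes miR-124a tumour 2 was the lowest of the 6, and the miR-124a tumours spanned 3.66-fold for Krt4 and 3.13-fold for Krt13, against 1.70-fold and 1.25-fold in control tumours. The differences were -0.47 ± 0.48 and -0.087 ± 0.39 (limma adjusted p of 0.549 and 0.904). Without miR-124a tumour 2 they were 0.0059 and 0.32. The dimmer Krt13 probe gave 0.064. Krt9, of palm and sole skin, differed by -0.21 ± 0.23, and Krt78 by -0.24 ± 0.33, neither passing. The median over the 8 suprabasal members was -0.36. It was -0.24 over the 7 above background on all 6 arrays, which leaves out Krt76.

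The inducible keratins Krt6a, Krt6b, Krt16 and Krt17 are made in wounded or rapidly growing epidermis and in hair follicle sheaths, and Krt75 and Krt79 belong to the companion layer and the upper follicle. All 6 had lower means with miR-124a, with a median of -0.47, and none passed the test. Krt6a had 2.53, 1.71 and 3.42 in miR-124a tumours and 2.70, 3.04 and 2.59 in control tumours. Krt6b had -1.01, -1.65 and 0.39 in miR-124a tumours and -0.31, 0.22 and -0.65 in control tumours. For both the miR-124a tumours held the lowest and the highest value of the 6. Krt16, a type I partner of the Krt6 proteins, had -2.45, -2.39 and -1.04 in miR-124a tumours and -1.74, -0.999 and -1.59 in control tumours. Krt17 had 1.13, 0.83 and 1.78 in miR-124a tumours and 1.201, 1.90 and 1.64 in control tumours. Tumour 3 of the miR-124a group was thus within or above the control range for all of Krt6a, Krt6b, Krt16 and Krt17, and miR-124a tumours 1 and 2 were below it. The differences were -0.22 ± 0.42, -0.51 ± 0.53, -0.52 ± 0.42 and -0.34 ± 0.29 (limma adjusted p of 0.754, 0.557, 0.450 and 0.480). Without miR-124a tumour 2 that of Krt6a was 0.20.

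Krt75 had -2.56, -2.85 and -2.76 in miR-124a tumours and -2.46, -2.60 and -1.86 in control tumours. Krt79 had -0.80, 0.24 and -0.50 in miR-124a tumours and -0.42, 0.61 and 0.66 in control tumours. Unlike the inducible keratins, they were not high in miR-124a tumour 3. The differences were -0.42 ± 0.21 (limma adjusted p = 0.247) and -0.64 ± 0.38 (adjusted p = 0.317).

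**Figure D2:**
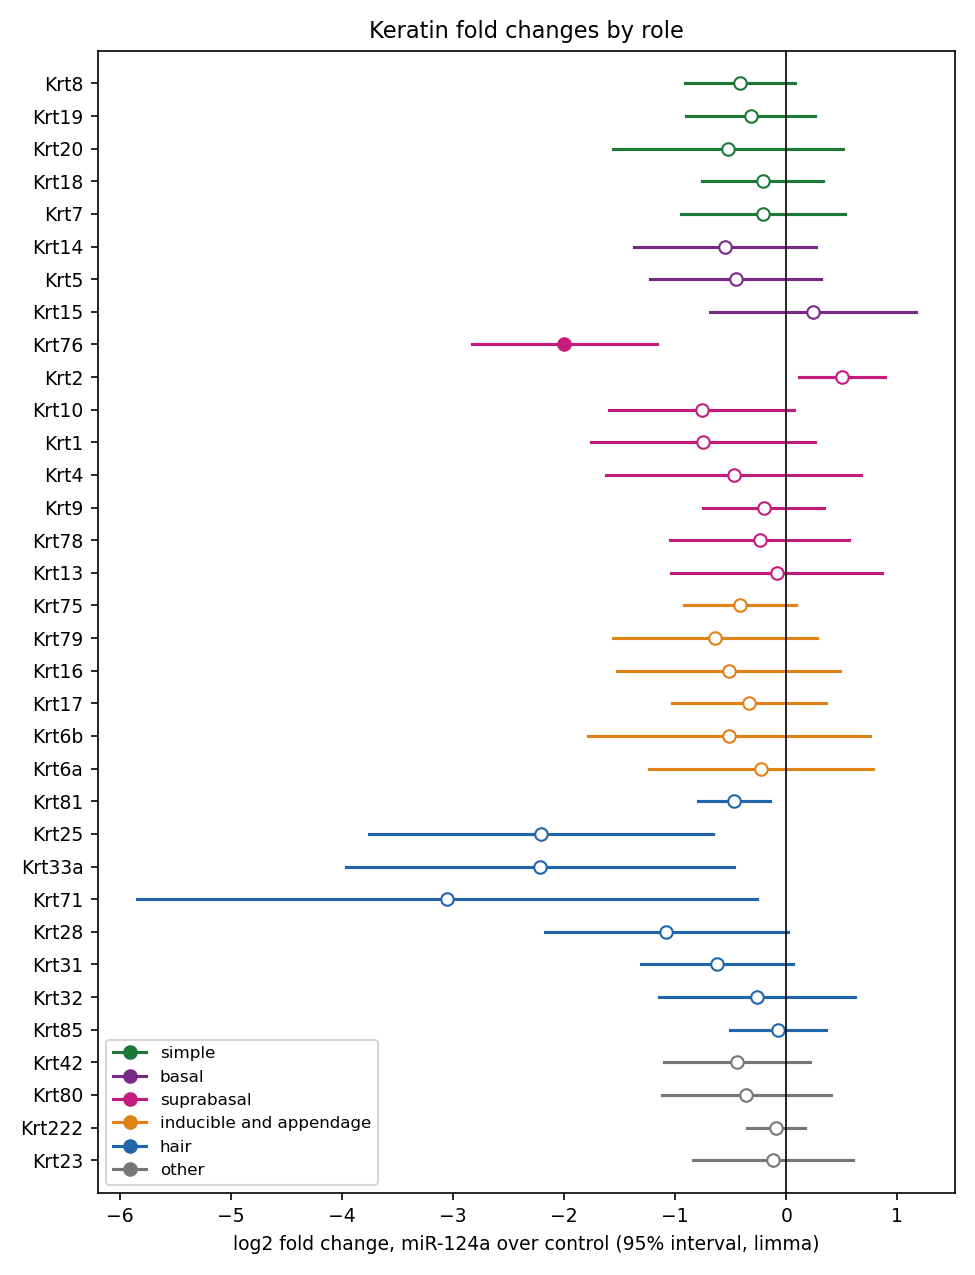
Each point is the log2 fold change of miR-124a over control for a tested keratin, with its 95% interval from limma, coloured by role. The filled point is Krt76, the only one past the threshold. Krt2 and Krt15 are the only points right of 0, and the widest intervals belong to Krt71, Krt25 and Krt33a.

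Among tested keratins, Krt71, Krt33a and Krt25 of the hair follicle had the most negative differences, and also the widest spread between control tumours. These 3 were tested only through the control arrays, a filter that favours lower values with miR-124a. Of 23 hair keratins on the array, 8 could be tested, all 8 had lower means with miR-124a and none passed the test. Krt71, a type II keratin of the inner root sheath that moulds the growing hair (probe on chromosome 15, 101564426 to 101564485, mm9), had -6.51, -2.92 and -4.61 in miR-124a tumours and -3.44, -1.46 and 0.030 in control tumours. The control tumours alone spanned 11.1-fold, and miR-124a tumour 2 was above control tumour 1. Its difference was -3.06 ± 1.15 with a limma adjusted p of 0.157.

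Krt25, a type I keratin of the inner root sheath (probe on chromosome 11, 99177867 to 99178575), had -5.85, -4.72 and -5.20 in miR-124a tumours and -4.07, -3.44 and -1.64 in control tumours. Krt28, of the same sheath, had -4.54, -3.80 and -4.24 in miR-124a tumours and -3.75, -3.50 and -2.09 in control tumours. In these sheath keratins the control tumours stood in the same order as for Krt71, with tumour 3 the highest and tumour 1 the lowest. The groups did not overlap for Krt25 or at the brighter Krt28 probe, where the nearest, miR-124a tumour 2 and control tumour 1, were at -3.80 and -3.75. At the other Krt28 probe they overlapped, with control tumour 1 at -4.61 and the miR-124a tumours from -4.63 to -4.27. The differences were -2.21 ± 0.64 for Krt25 (limma adjusted p = 0.102) and -1.08 ± 0.45 for Krt28 (adjusted p = 0.187), and -0.83 at the other Krt28 probe. With normexp background correction they were -0.59 and -0.40, and those of Krt71 and Krt33a were -1.20 and -0.50. Without control tumour 3 that of Krt28 was -0.57. On miR-124a array 1 Krt71 and Krt25 were not well above background, so those values are not measured levels. Krt27, also of the sheath, was above background only in control tumours 2 and 3, at -3.71 and -2.47. It was not tested.

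Krt33a, a type I keratin of the hair shaft cortex (probe on chromosome 11, 99872578 to 99872637), had -6.11, -5.69 and -6.01 in miR-124a tumours, where none of the arrays was above background, and -5.40, -3.39 and -2.36 in control tumours. Set against the lowest signal above background, its mean level was at least 3.12-fold lower with miR-124a. Control tumours 2 and 3 carried this bound, as control tumour 1 lay below that signal on miR-124a arrays 1 and 2 (-5.32 and -5.30). The fitted difference of -2.21 ± 0.72 did not pass the test (limma adjusted p = 0.122). Krt31, another cortex keratin, had -3.55, -3.70 and -3.43 in miR-124a tumours and -3.59, -2.68 and -2.53 in control tumours, a difference of -0.63 ± 0.28 (adjusted p = 0.211). Control tumours 2 and 3 were again the high ones, and control tumour 1 lay among the miR-124a tumours. Krt33b, of the hair shaft too, was above background in control tumours 2 and 3 only, at -4.86 and -4.39, and was not tested.

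Krt81 had -4.48, -4.54 and -4.12 in miR-124a tumours and -3.84, -3.97 and -3.92 in control tumours, without overlap, and a difference of -0.47 ± 0.13 (limma adjusted p = 0.0975). Krt85 had 0.45, -0.10 and 0.38 in miR-124a tumours and 0.30, 0.50 and 0.14 in control tumours, a difference of -0.072 ± 0.18 (adjusted p = 0.820). These are the probes with close copies, and the array annotation gives the Krt85 probe no position. Krt32, of the hair cuticle, had -4.21, -4.58 and -3.18 in miR-124a tumours and -3.97, -3.45 and -3.75 in control tumours, with miR-124a tumour 3 highest of the 6. The median over the 8 hair keratins was -0.85. It was -0.47 over those above background on all 6 arrays, near the -0.46 of basal and -0.47 of inducible and appendage keratins. That -0.47 is the value of Krt81, which is uncertain as to the gene. The others in that set were Krt28 at -1.08, Krt31 at -0.63, Krt32 at -0.27 and Krt85 at -0.072. With normexp the hair median was -0.33, against -0.35 for basal keratins, and without the filter on dim probes -0.54. It was -1.65 without Krt81 and Krt85, and -0.52 when control tumour 3 was left out. Control tumour 3 was the highest of the 6 for 5 of the 8 hair keratins (62.5%), against 18.0% of all genes tested.

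**Figure D3:**
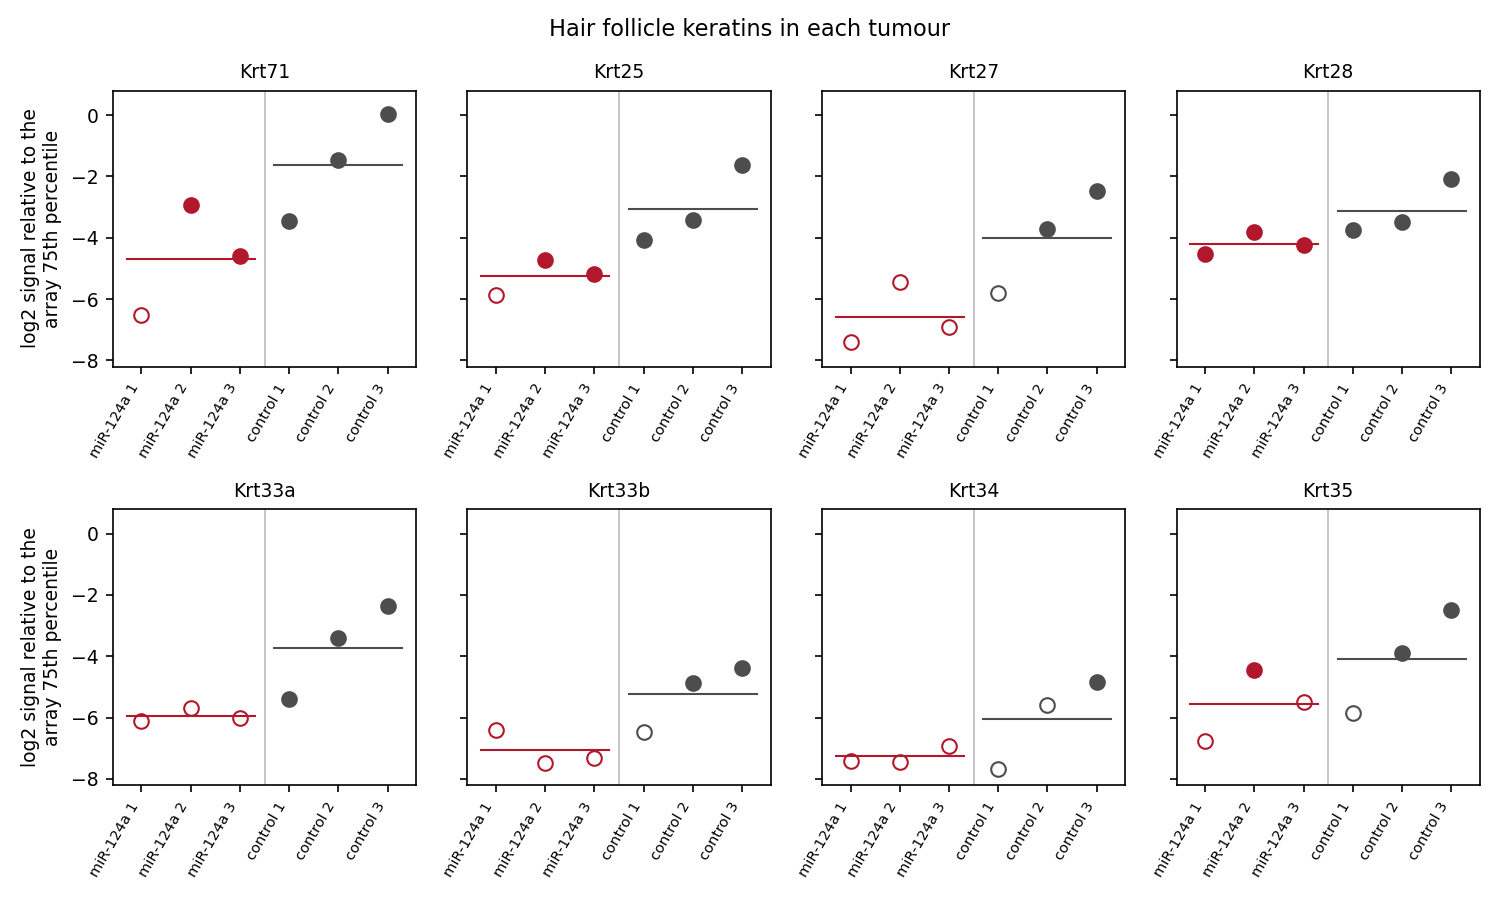
Points give the log2 level of 8 hair follicle keratins in each tumour, of which Krt27, Krt33b, Krt34 and Krt35 were not tested and which were picked after their values were seen, miR-124a in red on the left and control in grey on the right, with open circles where the array was not well above background and lines at the group means. Control tumour 3 is the highest in these panels, though not for Krt32, Krt81 and Krt85, which are not drawn, and Krt27, Krt33a, Krt33b and Krt34 have open circles in all 3 miR-124a tumours.

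The remaining members sit outside these roles. Krt80, a type II keratin of several epithelia, had 2 measurable probes that gave different answers. At the brighter probe the levels were -3.16, -3.42 and -2.43 in miR-124a tumours and -2.74, -2.19 and -3.01 in control tumours, a difference of -0.36 ± 0.31 (limma adjusted p = 0.488). At the dimmer probe they were -4.16, -3.96 and -4.02 in miR-124a tumours and -2.88, -2.57 and -2.92 in control tumours. There the groups did not overlap, and in a fit per probe the difference was -1.26 ± 0.13 (limma adjusted p = 0.0211). That fit called 2 of 39 keratin probes, against 2.78% of all probes. It was chosen after the values had been seen. Krt42 differed by -0.44 ± 0.27, Krt23 by -0.12 ± 0.30 and Krt222 by -0.097 ± 0.11, none past the threshold. The Krt222 probe matches a Gm4841 probe at 33 of 40 overlapping bases, and resembles probes of Sgsh, Trim25, Pak4 and Zcchc9 only on the opposite strand. Whether the Gm4841 match adds to its level was not tested, so the level is uncertain.

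**Figure D4:**
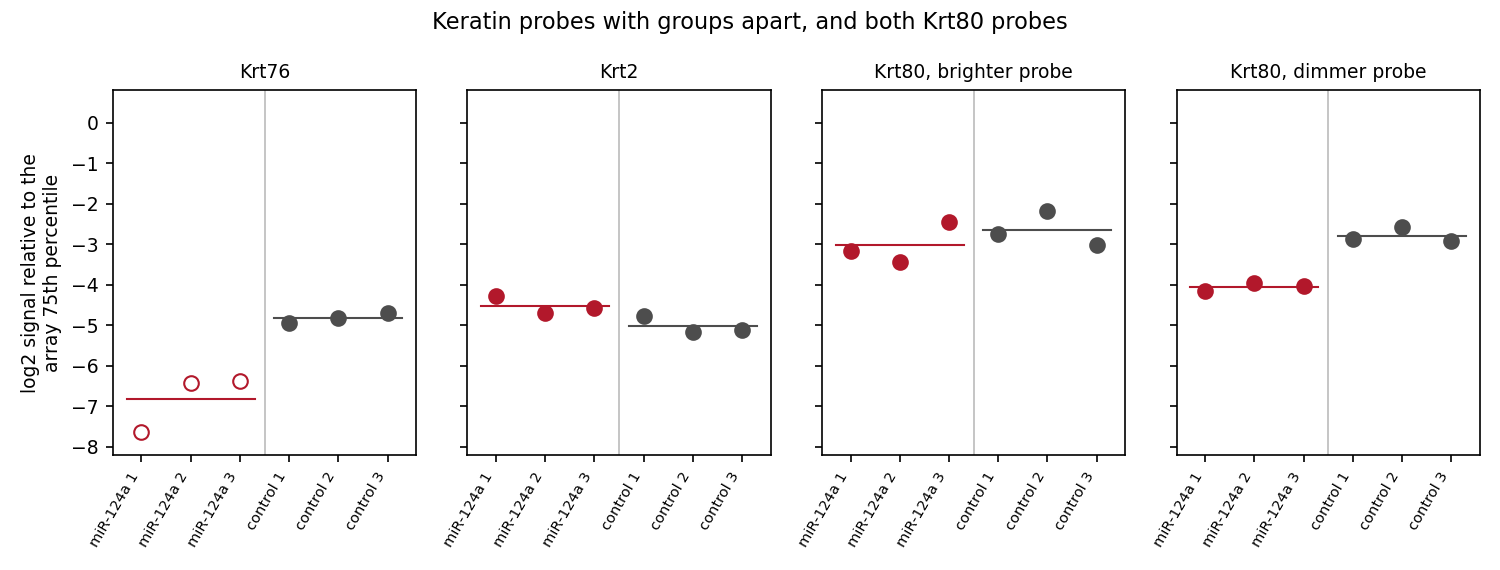
Log2 levels in each tumour of Krt76, Krt2 and the brighter and dimmer probes of Krt80, with miR-124a in red on the left, control in grey on the right, open circles not well above background and lines at group means. Groups are apart for Krt76, Krt2 and the dimmer Krt80 probe and overlap for the brighter one.

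The 18 keratins that were not tested were mostly of the hair, 15 of them. Krt26, Krt39, Krt40, Krt72, Krt73, Krt74, Krt77, Krt82, Krt83 and Krt84 were not well above background on any array. Krt24 and Krt34 were above background on 1 array, Krt12, Krt27, Krt33b and Krt86 on 2, Krt35 on 3 and Krt36 on 4. For Krt24, Krt27, Krt33b, Krt34 and Krt86 those arrays were all of control tumours. The probes of Krt12, the keratin of corneal epithelium, disagreed. At 1 of them only miR-124a tumours 1 and 3 were above background, at -4.75 and -4.90, and at the other only control tumour 1, at -5.28.

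By position, keratin genes lie in clusters, type I on chromosome 11 and type II on chromosome 15, where Krt18 also lies. The 17 tested members on chromosome 11 had a median difference of -0.44 and the 16 on chromosome 15 one of -0.44. Means were lower with miR-124a for 16 of 17 and 15 of 16 of them.

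Tumours of 1 group differed among themselves. Tumour 2 of the miR-124a group was the lowest of the 6 for 20 of 34 tested keratins (58.8%), against 21.2% of all genes tested. Tumour 3 of the miR-124a group was the highest of the 6 for 10 of 34, against 7.45% of all genes. The median level relative to the control mean was -0.44, -0.79 and -0.0019 in the miR-124a tumours and -0.31, 0.24 and 0.11 in the control tumours. Tumour 3 of the miR-124a group thus lay within the control range, and control tumour 1 lay between miR-124a tumours 1 and 3. In the hair group alone the medians were -1.02, -0.81 and -0.81 in miR-124a tumours and -0.65, 0.17 and 0.71 in control tumours. Every miR-124a tumour stood below every control tumour there, and not in the other groups. The hair medians include Krt71, Krt25 and Krt33a, admitted through the control arrays alone, so the separation cannot be called particular to hair keratins. Among the other tested hair keratins, Krt31, Krt32 and Krt85 overlapped between treatments, and Krt81 and the brighter Krt28 probe did not. The difference between groups of keratins was not tested. Without miR-124a tumour 2, 24 of 34 keratins had a lower mean and the medians came to -0.082 for simple, -0.13 for basal and -0.062 for suprabasal keratins.

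Genes that work with keratins were counted next. Of 18 tested genes for desmosomes and the plakins that tie keratins to them, 1 fell, against 2.75% of all genes, none rose and the median was -0.25. The one was Plec, plectin, a linker of filaments that is abundant in muscle as well as in epithelia. It had 3.06, 2.93 and 3.20 in miR-124a tumours and 3.86, 4.04 and 3.65 in control tumours, a difference of -0.79 ± 0.13 (limma adjusted p = 0.0397). Dst, dystonin, had 0.23 ± 0.088, Jup, plakoglobin, -0.28 ± 0.13 and Pkp3, a plakophilin, 0.45 ± 0.21, none passing. Of 20 cornified envelope and late epidermal genes, all 20 had lower means, against 50.3% of all genes. The median was -0.42 and none passed. Relative to the control mean, their medians were -0.73, -0.80 and 0.30 in miR-124a tumours and -0.41, 0.39 and -0.053 in control tumours. Tumour 3 of the miR-124a group thus stood above control tumours 1 and 3.

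Tchh, trichohyalin of the inner root sheath, had -3.42, -3.05 and -3.14 in miR-124a tumours and -2.82, -2.47 and -1.56 in control tumours. As with the sheath keratins, control tumour 3 was highest and control tumour 1 lowest of the controls. Its difference was -0.92 ± 0.32 (limma adjusted p = 0.137). Klk5, a protease of shedding skin, differed by -0.79 ± 0.29, Sprr2d by -1.33 ± 0.65 and Lce1a1 by -0.68 ± 0.35, none passing. Of 20 tested keratin-associated protein genes, a list taken by name after the values had been seen, none passed and the median was -0.24. Their 4 smallest p values belonged to Krtap10-4, Krtap4-13, Krtap19-4 and Krtap4-6, with differences of -0.47, -0.28, -0.51 and -0.26.

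Of 19 tested squamous and epithelial transcription factors none passed, and the median was -0.18. Trp63, the factor that maintains basal epithelium, had 2.70, 2.77 and 2.67 in miR-124a tumours and 2.74, 2.52 and 2.48 in control tumours. Its difference of 0.13 ± 0.10 (limma adjusted p = 0.444) turned to -0.50 when all its probes were averaged. Klf5, Dlx3 and Klf4 differed by -0.61 ± 0.21, -0.29 ± 0.11 and -0.28 ± 0.14, and Gata3 by 0.70 ± 0.41, none passing. Of 18 simple epithelium genes other than keratins, 17 had lower means, against 50.3% of all genes. The median was -0.27 and none passed. Relative to the control mean, their medians were -0.10, -0.77 and 0.030 in miR-124a tumours and -0.36, 0.36 and 0.041 in control tumours. Cdh1, E-cadherin, differed by -0.26 ± 0.27 and Epcam by -0.27 ± 0.26, and without miR-124a tumour 2 by 0.029 and 0.0028. Marveld2, of tricellular junctions, had the smallest p of the list (-0.42 ± 0.091, limma adjusted p = 0.0620), followed by Muc1 at -1.22 ± 0.37, St14 at -0.45 ± 0.29 and Cldn6 at -0.54 ± 0.39.

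**Figure D5:**
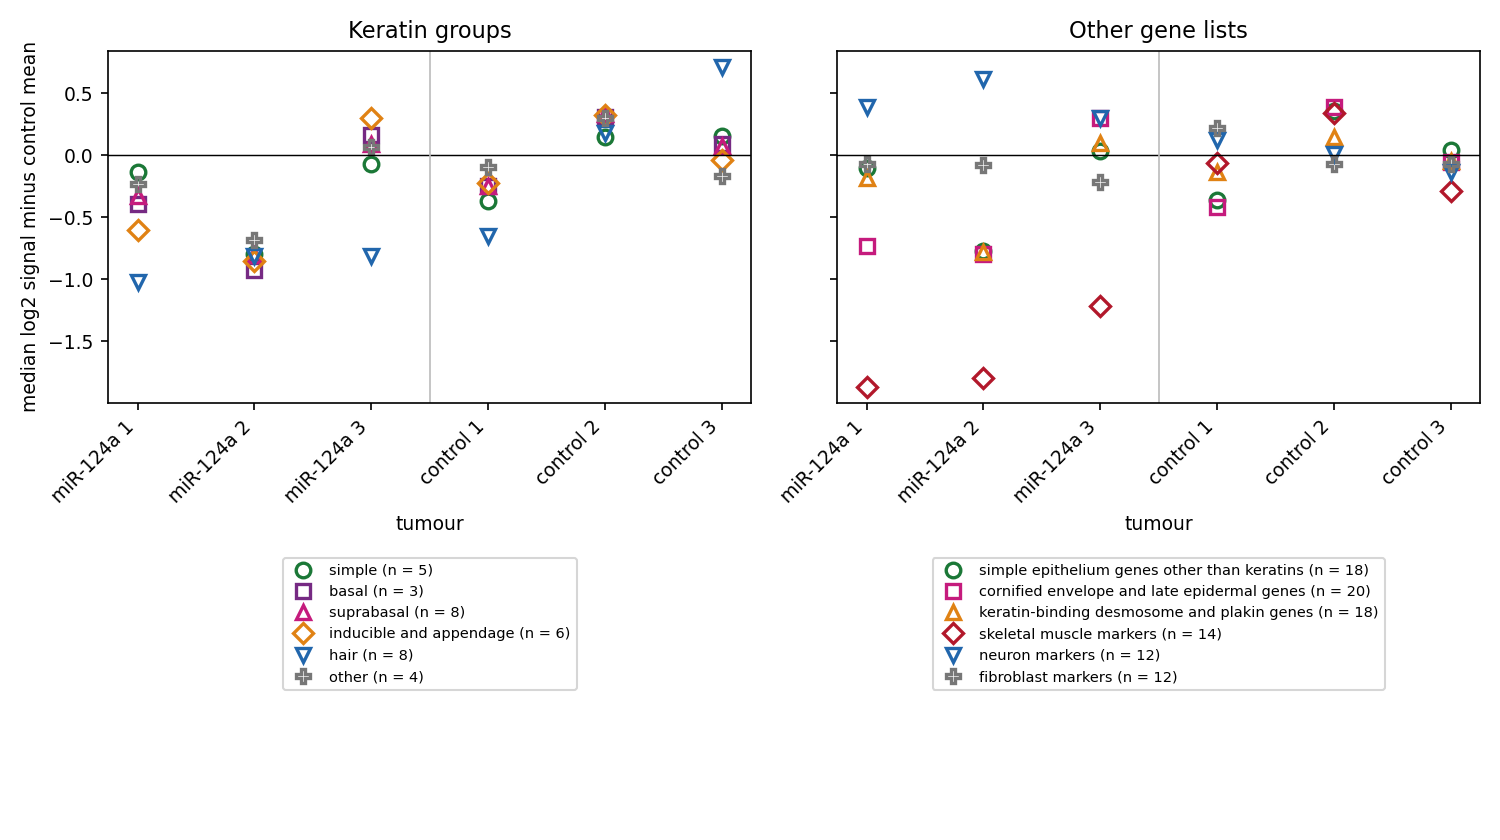
Medians over the genes of each group of the log2 level minus the control mean, in each tumour, for keratin groups at left and other gene lists at right, with miR-124a tumours left of control tumours in each panel. Tumour 2 of the miR-124a group is low for all keratin groups and the epithelial lists, while skeletal muscle is between -1.87 and -1.22 in all 3 miR-124a tumours.

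Other intermediate filament genes and markers of other tissues are set beside the keratins here. Of 16 tested filament genes outside the keratin family, 2 fell, against 2.75% of all genes, and none rose, against 0.488%. Sync, syncoilin of muscle, fell by 1.56 ± 0.22 on the log2 scale (limma adjusted p = 0.0284), and Lmnb2, a nuclear lamin, by 0.59 ± 0.10 (adjusted p = 0.0406). Lmna had -0.96 ± 0.20 and Des, desmin of muscle, -1.63 ± 0.31, just short of the threshold (adjusted p of 0.0587 and 0.0513). Vim, vimentin of mesenchyme, had -0.11 ± 0.11 (adjusted p = 0.547), and 0.072 with quantile scaling. Of 14 tested skeletal muscle markers 13 fell, with a median of -1.64. Myog and Myod1, regulators of muscle differentiation, had -1.65 ± 0.14 and -1.99 ± 0.22, and Ryr1 and Chrna1, of the muscle calcium channel and acetylcholine receptor, -1.69 ± 0.19 and -1.77 ± 0.20.

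Of 12 neuron markers none passed, and all had higher means with miR-124a, with a median of 0.44. Tubb3, Map2, Stmn2 and Elavl4 had 0.57 ± 0.11, 0.42 ± 0.11, 0.43 ± 0.12 and 0.48 ± 0.13 (limma adjusted p of 0.0531, 0.0893, 0.0893 and 0.0959). Of 12 fibroblast and 11 tested leukocyte markers none passed, with medians of -0.12 and -0.090. Among fibroblast markers Lum, Col1a2, Fbln1 and Twist2 differed by -0.47, -0.49, -0.28 and 0.36. S100a8 and S100a9, made by neutrophils and also by activated keratinocytes, had -1.11 ± 0.59 and -1.02 ± 0.65, and Cd3e and Cd14 had -0.27 and -0.32. The part of muscle, neuronal or other tissue in the keratin levels was not tested.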

How the data were processed

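Each array measured 1 tumour. Per the file headers, the deposited intensity (processed signal) came from Agilent Feature Extraction 11.5.1.1, corrected for background and not scaled between arrays. A deposited table of log2 values by the authors was used as an alternative. It equals log2 processed intensity minus a constant per array (SD of the difference 0.0029), with column medians of -2.97, -2.99 and -2.98 for miR-124a 1 to 3 and -2.98, -3.07 and -2.98 for control 1 to 3. The steps behind it are not given in the sources used here. Positions of probes come from the annotation inside the scanner files (build mm9).

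Spots of 1 probe were averaged, log2 was taken and each array's 75th percentile subtracted. A gene was represented by its brightest probe among the 35719 that passed the background filter. All 22946 genes were fitted together (R 4.3.3, limma 3.58.1 with eBayes, no covariates, two-sided, Benjamini-Hochberg, threshold 0.05), which was tested on simulated data. For a group with no array well above background, folds written as at least are set against the lowest signal that counted as well above background on each array, a floor that takes no account of spread between tumours. The number of arrays limits the precision.

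Members, roles and gene lists were chosen with earlier results of these data known. Named were keratins past the threshold, 17 set keratins, up to 4 more per role with the smallest p, every untested keratin, up to 4 genes of each list, and Trp63, Cdh1, Epcam and Vim. Figures used matplotlib. Alternatives were quantile scaling, normexp (offset 50) with quantile scaling, the authors' table, other filters on dim probes, a replicate block, averaging a gene's probes, variance trend with robust estimation, array weights and leaving out each tumour.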

Additional observations from a re-analysis of the deposited data

How the results depend on the processing

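With 3 tumours per group and dim hair keratins, differences smaller than the spread between tumours could not be called. The 742 changed genes (112 higher, 630 lower) became 1542 with normexp background correction (574 higher, 968 lower), 1723 with variance trend and robust estimation and 96 with dim probes kept. Leaving out 1 tumour gave 0 to 375: 1, 0 and 375 without miR-124a 1, 2 and 3, and 13, 0 and 353 without control 1, 2 and 3. The keratin count of 1 became 0 with normexp, no filter, a filter on all 6 arrays, array weights and every left-out tumour, and stayed 1 under the other settings apart from the replicate block. At an unadjusted p under 0.05 (limma) those left-out fits differed at 3 to 13 keratins, and normexp, no filter, the filter on all 6 arrays and array weights at 3, 10, 3 and 7. Normexp, its offset and quantile scaling were applied together, and their effects were not separated. The causes of these changes were not tested.

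Labels number the tumours 1 to 3 in both groups. Deviations of same-numbered tumours from their group means correlated at -0.16, -0.039 and -0.065, and those of differently numbered tumours at -0.21 to 0.34. Pairing by number was thus not seen, though deviations from a mean of 3 tumours cannot exclude it. With a replicate block 0 genes and 0 keratins passed (limma; 4954 genes and 10 keratins at an unadjusted p under 0.05), with an adjusted p of 0.113 for Krt76.

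Plec, Sync and Lmnb2 did not pass without the filter (adjusted p of 0.0879, 0.0699 and 0.0877) or without most single tumours. Medians over left-out tumours ran from -0.46 to -0.082 (simple), -0.76 to -0.13 (basal), -0.74 to -0.062 (suprabasal) and -1.18 to -0.52 (hair). The hair median was -1.65 without members whose probe is alike to another keratin's, an alternative chosen after seeing the data.

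Sign changes were all in differences that had not passed. Over the fits that leave out 1 tumour, the difference ran from -0.50 to 0.32 for Krt13, -0.39 to 0.11 for Krt23, -0.67 to 0.031 for Krt32, -0.93 to 0.0059 for Krt4, -0.66 to 0.20 for Krt6a, -0.47 to 0.080 for Krt7, -0.55 to 0.074 for Krt78, -0.18 to 0.10 for Krt85, -0.46 to 0.029 for Cdh1 and -0.41 to 0.0028 for Epcam, each highest without miR-124a 2. For Krt9 it ran from -0.43 to 0.0040, highest without control 2, which also turned Krt23 (0.077) and Krt85 (0.020). Array weights turned Krt13 (0.15) and Krt23 (0.017). Vim changed to 0.072 with quantile scaling and 0.046 with normexp, Trp63 to -0.50 with the mean of probes, and Krt13 to 0.064 at its dimmer probe.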
